A study of Drosophila melanogaster with 2 samples.

Results

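The genes described here encode 9 Drosophila melanogaster proteins that read, or are recruited to, core promoter and insulator sites: Dref, M1BP, Trl, CTCF, su(Hw), BEAF-32, Cp190, Chro and pzg. They were taken as a list of symbols, chosen with earlier results of these data known. All 9 matched a gene model, out of 13968 protein-coding genes on the chromosome arms. Chromatin immunoprecipitation followed by sequencing was done on embryos aged 0 to 18 h of the hbn-GFP strain, whose homeobrain protein (hbn, a paired-like homeodomain transcription factor) carries an eGFP tag and was pulled down with an anti-GFP antibody, although the labels' antibody entry names hbn. The 2 libraries are biological replicates of 1 group, so no treated or mutant group is set against a control, and the control chromatin was not analysed here. The chromatin came from whole embryos and was sonicated to fragments of 200 to 800 bp. The labels do not say which cells carry the fusion or how its level compares with the native protein.

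DREF, M1BP and GAGA factor (the product of Trl) bind short sequences close to transcription starts, and active housekeeping promoters of flies are rich in the first pair of sites. CTCF, Su(Hw) and BEAF-32 bind insulator sequences, which limit contact between neighbouring stretches of chromatin. CP190, Chromator and Putzig lack such a well-defined site of their own and join DNA-bound factors at insulators, promoters and the interbands of polytene chromosomes.

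A summit is the position of highest enrichment in a peak. The deposited peaks past an IDR threshold form 4 sets. The conservative set rests on the comparison of the replicates, the pooled set on both libraries together, and each replicate has a set of its own. Most summits near the 9 genes are in both the conservative and the pooled set, with the same position and signal, so these sets are not separate measurements. The enrichment value that the files give for a peak is called its signal here. Its units are not stated, and depth is unknown. Promoter summits are those within 500 bp of a start of any gene model, coding or noncoding. A percentile is the share of the named reference with a lower signal in the same file. The irreproducible discovery rate (IDR) is given as its −log10, which is higher for entries that keep their rank better. Whole embryos were used, so binding in few cells and weak binding in many cannot be told apart.

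Of the 9 genes, 6 had a summit within 500 bp of an own start, and the 3 others (M1BP, Chro and su(Hw)) had none. The 6 genes were Dref, Trl, CTCF, BEAF-32, Cp190 and pzg, and they were the same in the conservative, pooled, replicate 1 and replicate 2 sets. Over all protein-coding genes, 26.5% had such a summit in the conservative set (Wilson 95% interval 25.7 to 27.2, which covers the number of genes only), 26.6% in the pooled set, 24.5% in the set of replicate 1 and 17.6% in that of replicate 2. With summits in the gene or within 5 kb of it counted, Chro joined and the count was 7 of 9 in each set. The shares of all protein-coding genes were then 50.1% in the conservative set, 50.1% in the pooled set, 47.3% in replicate 1 and 37.6% in replicate 2. No test was made of these counts, and the 9 genes were chosen with earlier results of these data known.

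The conservative set held 16 summits in or within 5 kb of the 9 genes. Of these, 8 lay within 500 bp of an own start, 6 lay at the start of a neighbouring gene and 2 lay in Trl introns, away from any start. The sequence TATCGA, the core of the DREF site, was within 100 bp of 4 of the 8, of 5 of the 6 and of 0 of the 2. It was within 100 bp of 52.3% of all 3192 promoter summits and of 18.0% of the 400 other conservative summits, the class of the 2 intronic ones.

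**Figure D1:**
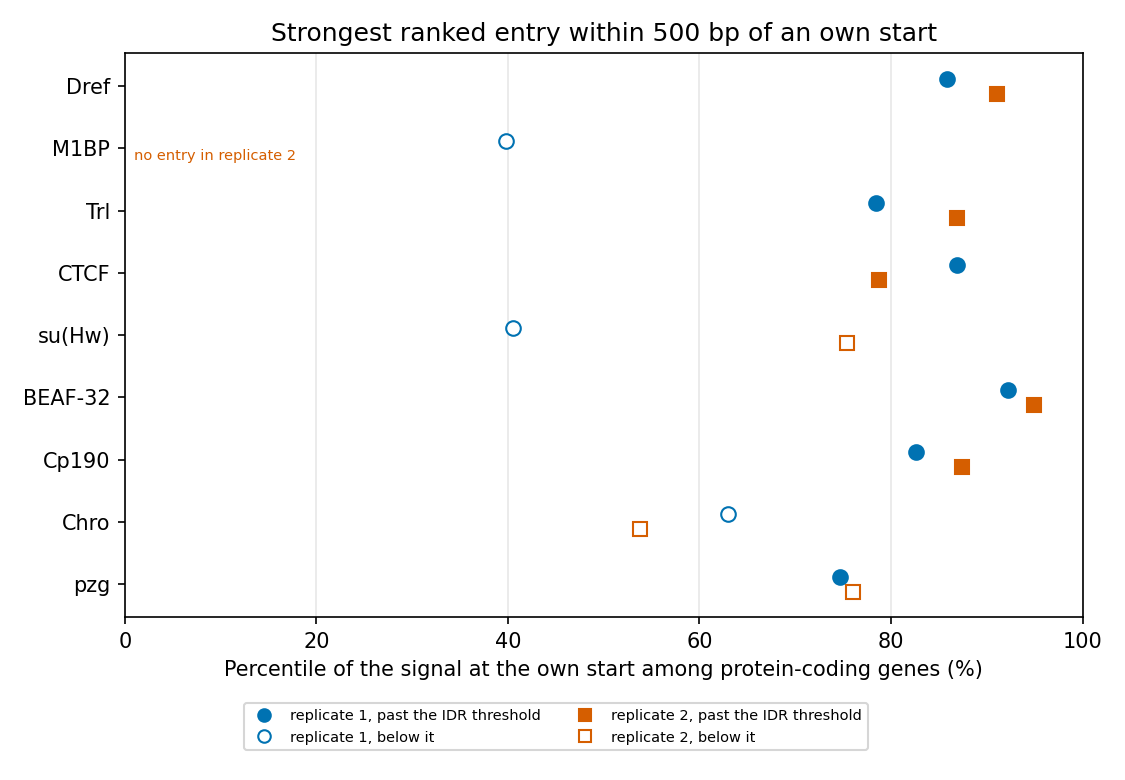
The percentile of the strongest ranked entry within 500 bp of an own start, among 13968 protein-coding genes, is plotted for each of the 9 genes (rows) in replicate 1 (circles) and replicate 2 (squares), with filled symbols for entries past the IDR threshold. BEAF-32 is highest in both replicates, at 92.2% and 94.9%, and M1BP has no entry in replicate 2.

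Dref encodes DREF, the BED-type zinc finger protein that binds TATCGATA at promoters of growth and replication genes. The gene (FBgn0015664) lies on the minus strand of 2L from 9964147 to 9967229 in dm6, with 1 start. Its single conservative summit, at 9967154, lay 75 bp downstream of that start in the 5′ UTR, with a signal of 171 and a −log10 IDR of 3.73. The signal was 94.2 in replicate 1 and 78.1 in replicate 2, and the summits of the replicates lay 115 and 71 bp downstream of the start. At its own start, Dref was above 85.8% of protein-coding genes in replicate 1 and above 91.1% in replicate 2. Among promoter summits of each set it stood near the middle, above 54.8% in replicate 1 and 58.2% in replicate 2.

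Dref shares its promoter with RpL13, a ribosomal protein gene on the other strand whose start lay 159 bp from the summit. The stretch between both starts is shown because it holds TATCGA once, 14 bp upstream of the Dref start. It is chr2L:9967230-9967312 (dm6, RefSeq), read on the minus strand towards Dref, with TATCGA in capitals.

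Dref to RpL13: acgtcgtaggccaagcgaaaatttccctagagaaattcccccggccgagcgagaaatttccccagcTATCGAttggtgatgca

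The full 8-base site, TATCGATA, was not within 100 bp of the Dref summit. Both copies of TATCGA in that window lay towards its edges, 84 and 89 bp from the summit. GAGAG occurred in the window as well, 2 times. Replicate 1 had a further entry 129 bp upstream of the Dref start and 28 bp from the RpL13 start, with a signal of 5.19, which overlapped the main peak and had a −log10 IDR of 3.59 beside 3.58.

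M1BP (FBgn0037621, 3R from 8729790 to 8731698, minus strand) encodes the zinc finger protein that binds motif 1, GGTCACAC. No conservative summit lay nearer than 16.0 kb to the gene, where a summit with a signal of 135 lay 15 bp from the start of CG9801. Replicate 1 had a ranked entry below the threshold 38 bp downstream of the M1BP start, with a signal of 12.4, and replicate 2 had no entry within 500 bp. The value in replicate 1 was above 39.8% of protein-coding genes, of which 35.2% had no entry at all. None of the 9 words sought was within 100 bp of the M1BP start.

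Trl encodes GAGA factor, a BTB and zinc finger protein that binds GAGAG and keeps promoters open. The gene (FBgn0013263) lies on the minus strand of 3L from 14747929 to 14761049 and has 4 starts and 10 transcripts. With 5 conservative summits in the gene or within 5 kb, it had the most of the 9 genes. As many or more were found at 1.23% of protein-coding genes (172 of 13968). Trl is also the longest of the 9 genes, at 13121 bp, and this share was not matched for gene length. The Trl count was 6 in replicate 1 and 2 in replicate 2, where CTCF and Chro had 3 each. Those of Chro lay outside the gene at starts of neighbours and included an overlapping entry with a signal of 6.61. Those of CTCF included a summit at the start of Sec63 and an overlapping entry with a signal of 14.5. The summit nearest an own start lay at 14758002, 40 bp upstream of the start that 7 transcripts share. The same position was 40 bp from a start of CG42507, which runs in the same direction. Its signal was 120, with 59.8 in replicate 1 and 59.5 in replicate 2. In the conservative set, an overlapping entry 239 bp upstream of the same Trl start had a signal of 19.3. By its strongest own-start entry, Trl was above 78.4% of protein-coding genes in replicate 1 and 86.9% in replicate 2. That entry was the summit just described in replicate 2. In replicate 1 it was another one, with a signal of 60.1, 134 bp upstream of the most downstream start.

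The strongest summit in Trl was in an intron, 847 bp downstream of the nearest own start. It lay at 14756489 with a signal of 168, which was above 89.8% of the 400 conservative summits away from promoters (median 83.0). The matching entries had 111 in replicate 1 and 51.1 in replicate 2, and it passed the threshold in the set of replicate 1 and not in that of replicate 2. A further intronic summit, at 14760204, lay 845 bp downstream of the most upstream start, with a conservative signal of 96.8. Replicate 1 gave it 56.5 and replicate 2 gave it 46.6, and both values passed the threshold. The remaining conservative summit near Trl, with a signal of 116, lay outside the gene and 91 bp from the start of Mgat4a. Replicate 1 alone had another intronic summit, with a signal of 37.2, 2225 bp downstream of the nearest own start.

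**Figure D2:**
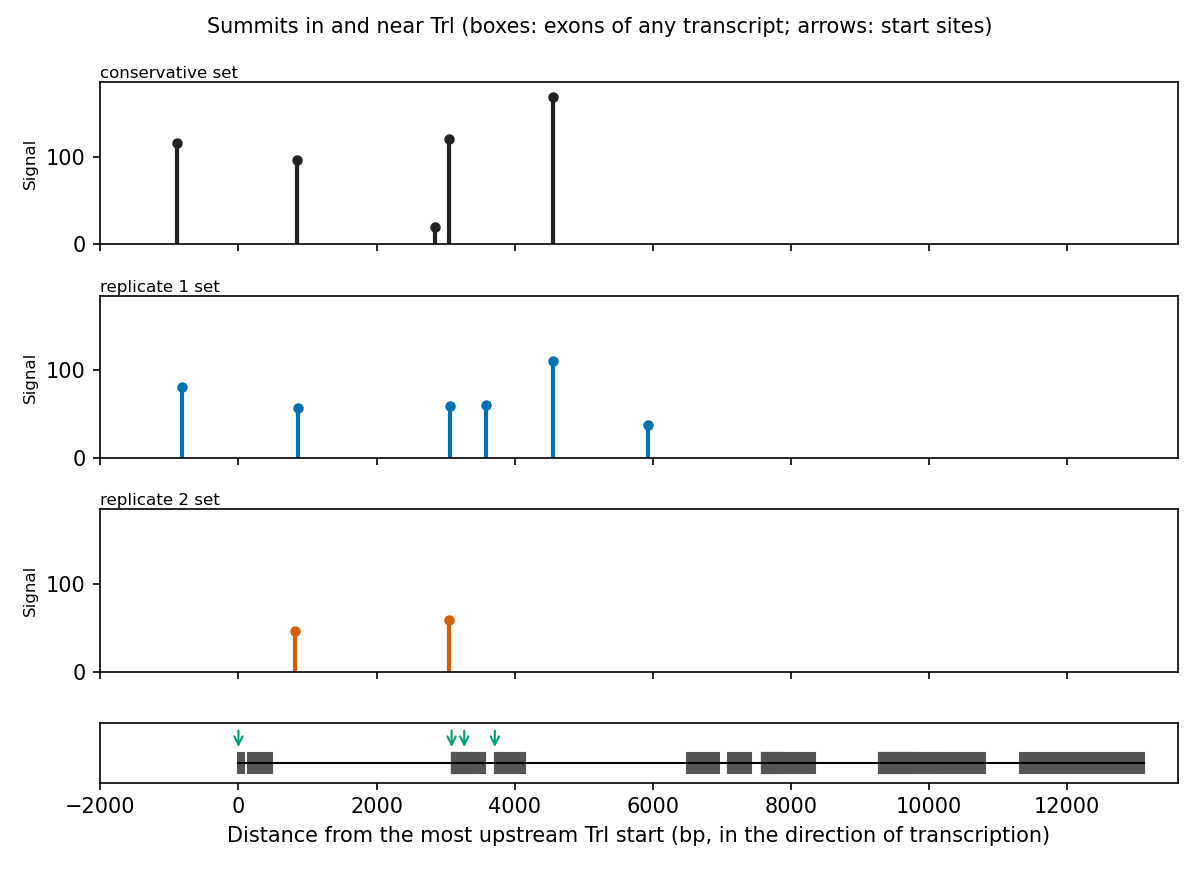
Signals of the summits in and near Trl are plotted against distance from the most upstream start in bp, for the conservative, replicate 1 and replicate 2 sets, above the exons (boxes) and the 4 starts (arrows). The summits at 845 and 3047 bp in the conservative set have counterparts in both replicates, and the strongest, at 4560 bp, is past the threshold in replicate 1 alone.

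The intronic summits of Trl held repeats of GAGAG, the site of the factor that the gene encodes. Within 100 bp of the summit at 14756489 there were 9 copies, counting overlapping ones and both strands, and 5% of the 400 summits away from promoters had at least as many. The summit at 14760204 had 4 copies, and 21% of those 400 summits had at least as many. At least 1 copy was present at 49% of them, at 23.3% of promoter summits and at 25% of all 19275 protein-coding starts. The windows are shown because they hold the Trl summits that lie away from every start. They are chr3L:14756389-14756589 and chr3L:14760104-14760304 (dm6, RefSeq), on the minus strand, with GAGAG and its reverse complement CTCTC in capitals.

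Trl, downstream intron: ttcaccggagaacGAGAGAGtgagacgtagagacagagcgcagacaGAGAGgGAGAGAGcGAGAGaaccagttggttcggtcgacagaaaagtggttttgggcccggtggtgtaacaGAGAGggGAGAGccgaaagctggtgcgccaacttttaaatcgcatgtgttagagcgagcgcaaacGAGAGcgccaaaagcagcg

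Trl, upstream intron: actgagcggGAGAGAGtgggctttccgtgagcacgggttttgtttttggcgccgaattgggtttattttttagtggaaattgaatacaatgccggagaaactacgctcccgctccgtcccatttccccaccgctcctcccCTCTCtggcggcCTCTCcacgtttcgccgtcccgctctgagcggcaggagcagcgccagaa

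The most downstream Trl start had 10 copies of GAGAG within 100 bp, all of them upstream. The stretch is shown as the longest run of the site at a member's start, at chr3L:14757377-14757426 on the minus strand.

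Trl, downstream start: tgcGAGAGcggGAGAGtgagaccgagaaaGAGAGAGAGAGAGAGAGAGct

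A summit 136 bp upstream of that start was in the pooled set with a signal of 67.7 and not in the conservative set. Replicate 1 had a summit 134 bp upstream of the same start, with a signal of 60.1. None of the 9 words sought was within 100 bp of the main Trl promoter summit at 14758002.

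CTCF (FBgn0035769, 3L from 7353578 to 7356713, minus strand, 1 start) encodes the fly form of the zinc finger insulator protein CTCF. Its conservative summit, at 7356700, lay 13 bp downstream of the start in the 5′ UTR, with a signal of 148 and a −log10 IDR of 3.05. The replicates differed more here than at most promoters. The signal was 101 in replicate 1 and 39.0 in replicate 2, a ratio of 2.59, which was above 95% of the ratios at 2972 promoter summits with an entry in both replicates. The median ratio was 1.61, with quartiles of 1.29 and 1.95. Among the promoter summits of each set, CTCF was above 58.2% in replicate 1 and above 13.2% in replicate 2.

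The CTCF promoter held the full DREF site, TATCGATA, whose centre was 17 bp upstream of the start and 30 bp from the summit. TATCGATA contains TATCGA and CGATA once on each strand, so the counts of these words overlap. It was within 100 bp of 23.7% of promoter summits and of 6.44% of protein-coding starts. The 100 bases upstream of the start are shown, at chr3L:7356714-7356813 on the minus strand, with the site in capitals.

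CTCF upstream: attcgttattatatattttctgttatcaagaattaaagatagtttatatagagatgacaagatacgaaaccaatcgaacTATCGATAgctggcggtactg

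The core of CTCF's own site, searched as AGNNGGCGC on both strands, was not within 100 bp of the CTCF summit or start. It was within 100 bp of 2.69% of promoter summits, and among the 16 summits near the 9 genes it occurred at the downstream intronic summit of Trl alone. Another summit, 3812 bp upstream of the CTCF start, was stronger, with a conservative signal of 191, and lay 36 bp from the start of Sec63. It had 99.2 in replicate 1 and 77.1 in replicate 2, and TATCGATA lay 2 bp from it.

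The gene su(Hw) (FBgn0003567, 3R from 14304455 to 14308589, minus strand, 1 start) encodes the zinc finger protein that binds the gypsy insulator. It had no summit past the threshold in the gene or within 5 kb in any of the 4 sets. The nearest conservative summit lay 7.64 kb away, 117 bp from the start of Set8. Below the threshold, the replicates differed. The strongest entry within 500 bp of the start had a signal of 13.0 in replicate 1 (−log10 IDR 0.07) and of 33.8 in replicate 2 (−log10 IDR 1.27). These were above 40.5% and 75.4% of protein-coding genes. In the ranked file behind the conservative set, the strongest entry had a signal of 62.6 at a −log10 IDR of 0.16, above 69.2% of protein-coding genes. Its signal was higher than the 19.3 of the weaker Trl own-start summit, which passed the threshold at a −log10 IDR of 2.26.

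The su(Hw) start was the only start among those of the 9 genes with motif 1, the site of M1BP, within 100 bp. Its centre was 9 bp downstream of the start, and 5.68% of protein-coding starts had the word within 100 bp. The 30 bases round the start are shown, at chr3R:14308570-14308599 on the minus strand, with GGTCACAC in capitals. The core of Su(Hw)'s own site, searched as TGCATA, was not within 100 bp of the start.

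su(Hw) start: caacctacatgcaacGGTCACACtgaattt

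BEAF-32 encodes a BED-type zinc finger protein that binds clusters of CGATA, a word that also ends the DREF site. The gene (FBgn0015602) lies on the plus strand of 2R from 14770469 to 14772630, with 3 starts. It had 2 conservative summits near own starts, as 4.37% of protein-coding genes had at least 2. The stronger, at 14771661, lay in an intron 360 bp downstream of the third start, with a signal of 232 that was above 77.2% of promoter summits. It was the highest own-start signal among the 9 genes in the conservative set. The other, at 14770846, lay 70 bp upstream of the second start with a signal of 177. A further summit, 27 bp downstream of the first start with a signal of 64.4, was in the set of replicate 1 alone.

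The replicates ordered the conservative BEAF-32 summits differently. In replicate 1 the signal was 148 at the downstream summit and 98.9 at the upstream one. In replicate 2 it was 71.1 at the downstream summit and 104 at the upstream one. The ratio of replicate 1 to replicate 2 was 2.08 downstream and 0.948 upstream, above 81.9% and 6.22% of the ratios at promoter summits. By its strongest summit, BEAF-32 was above 92.2% of protein-coding genes in replicate 1 and above 94.9% in replicate 2. CGATA was within 100 bp of the downstream summit in 2 copies, 13 and 39 bp away, and of the upstream summit in 1 copy 94 bp away. At least 1 copy was within 100 bp of 67.8% of promoter summits and at least 2 copies within 100 bp of 49.7%. TATCGA was at the downstream summit alone, and TATCGATA at neither. A noncoding antisense gene, asRNA:CR42254, started 44 bp from the upstream summit.

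Chro (FBgn0044324, 3L from 22873702 to 22878984, minus strand, 3 starts) encodes Chromator, a chromodomain protein of interbands and the spindle matrix. It had no own-start summit in any of the 4 sets. Below the threshold, the strongest entry at an own start had a signal of 31.8 in replicate 1, 99 bp upstream of a start, and of 18.3 in replicate 2, 70 bp upstream. These were above 63.0% and 53.8% of protein-coding genes. Its summits within 5 kb lay past the 3′ end of the gene, at the starts of neighbours. The summit 13 bp from the start of CG11109 had a signal of 140, with 105 in replicate 1 and 70.3 in replicate 2. The summit 67 bp from the start of Arf1, a small GTPase gene, had a signal of 93.0, with 77.0 in replicate 1 and 44.9 in replicate 2. Both held TATCGA within 100 bp. Of the 3 Chro starts, 1 had TATCGA within 100 bp, 91 bp downstream of it.

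Cp190 (FBgn0000283, 3R from 15270432 to 15275241, minus strand, 2 starts) encodes the BTB and zinc finger cofactor that several insulator proteins recruit. Its conservative summit, at 15275287, lay 46 bp upstream of the first start, with a signal of 138 and a −log10 IDR of 3.36. The signal was 76.3 in replicate 1, 45 bp upstream, and 61.8 in replicate 2, 8 bp upstream. Cp190 was above 82.6% of protein-coding genes in replicate 1 and 87.4% in replicate 2, and above 43.7% and 41.5% of promoter summits in the same sets. CG4338 started on the other strand 235 bp from the summit. A summit of similar conservative signal, 141, lay 2903 bp upstream of Cp190 and 35 bp from the start of MRG15. Its matching entries had 98.0 in replicate 1 and 49.4 in replicate 2, the second below the threshold.

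Both Cp190 starts had TATCGATA. At the first start the site covered the start itself and lay 46 bp from the summit, with another CGATA 13 bp upstream of the start. At the second its centre was 17 bp upstream, as at CTCF, and the summits within 500 bp of it lay nearer to the first start. The 30 bases round the first start (chr3R:15275232-15275261) and the 30 upstream of the second (chr3R:15274791-15274820) are shown on the minus strand, with TATCGATA and further copies of CGATA, read as TATCG on this strand, in capitals.

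Cp190 first start: gaggtTATCGcatggcTATCGATAgctgcc

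Cp190 second start: acaggcgtaTATCGATAtttgcgagttgca

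The whole stretch between the starts of Cp190 and CG4338 is shown for its base composition, since its GC content was 28.9%. It is chr3R:15275242-15275521, read towards Cp190, with CGATA (as TATCG) in capitals.

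Cp190 to CG4338: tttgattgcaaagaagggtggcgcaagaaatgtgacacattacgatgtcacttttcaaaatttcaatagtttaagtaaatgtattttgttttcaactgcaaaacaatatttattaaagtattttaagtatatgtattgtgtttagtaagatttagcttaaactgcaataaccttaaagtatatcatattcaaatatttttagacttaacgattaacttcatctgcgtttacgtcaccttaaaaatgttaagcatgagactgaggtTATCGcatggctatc

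Putzig, also called Z4, is a zinc finger protein found with Chromator at interbands and with DREF in a TRF2 complex. Its gene, pzg (FBgn0259785, 3L from 21286099 to 21290310, plus strand, 1 start), had the weakest own-start summit of the 6 genes. The conservative summit, at 21286025, lay 74 bp upstream of pzg and 63 bp from the start of CG12974 on the other strand, with a signal of 70.7 and a −log10 IDR of 2.29. It was above 16.9% of promoter summits. The replicates did not place it alike. Replicate 1's summit lay 105 bp upstream with a signal of 50.3. Replicate 2's lay 289 bp upstream, 152 bp from the CG12974 start, with a signal of 29.5. Replicate 2 also had a stronger entry below the threshold, with a signal of 34.5, 306 bp downstream of the pzg start. By the strongest entry, pzg was above 74.7% of protein-coding genes in replicate 1 and 76.0% in replicate 2.

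None of the 9 words sought was within 100 bp of the pzg summit, and the stretch between both starts is shown beside those above for contrast. Its GC content was 60.3%. It is chr3L:21285963-21286098, on the plus strand.

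pzg to CG12974: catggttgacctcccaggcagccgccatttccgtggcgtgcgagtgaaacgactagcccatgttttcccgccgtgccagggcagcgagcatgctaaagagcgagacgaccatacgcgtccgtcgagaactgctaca

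A stronger summit near pzg, with a signal of 86.2, lay 4559 bp upstream and 34 bp from the start of ppl. That one had TATCGATA 10 bp away. It was in the set of replicate 1 and in neither the pooled set nor that of replicate 2.

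**Figure D3:**
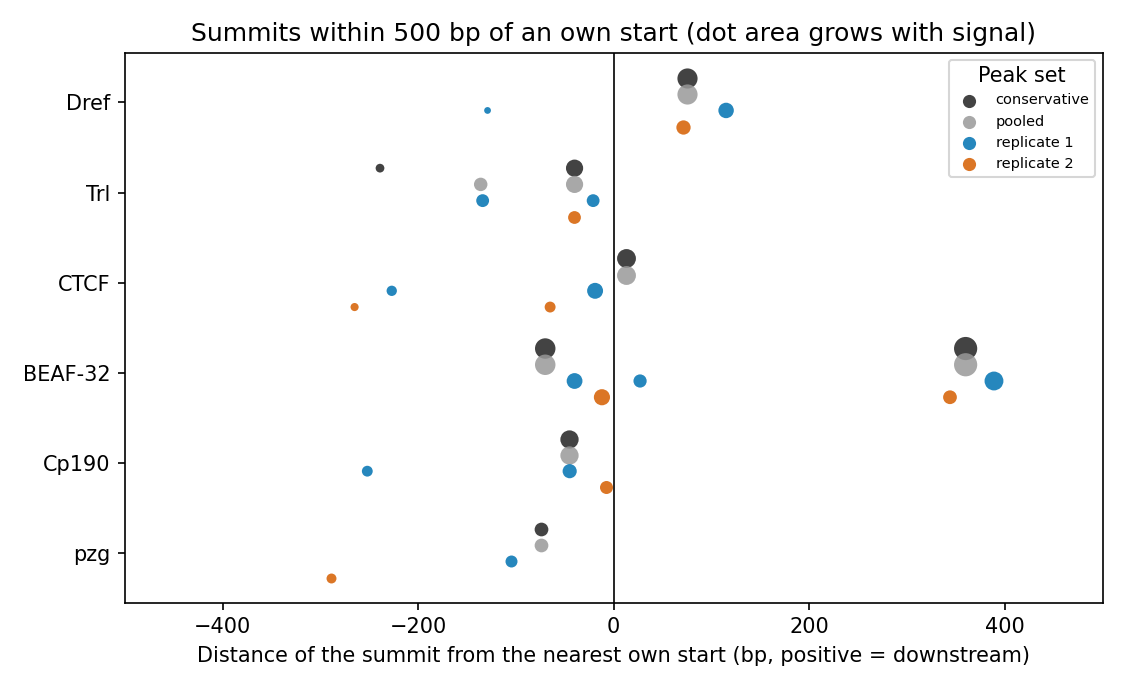
Distances of summits from the nearest own start (bp, positive downstream) are plotted for the 6 genes with any, with 1 line of dots for each of the 4 peak sets and a dot area that grows with signal. Main summits lie between 289 bp upstream and 115 bp downstream of a start, apart from the BEAF-32 summit 344 to 389 bp downstream.

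Own-start summits of the 9 genes lay either within the quartiles of GC content of promoter summits or above them. The 201-base windows at the summits of Dref, Cp190 and CTCF had 38.3%, 36.8% and 35.3% GC. Over all promoter summits the median was 39.8%, with quartiles of 34.8% and 46.3%. The weaker Trl own-start summit, at 43.3%, also lay between these quartiles. The windows at pzg (53.7%), at the main Trl promoter summit (51.7%) and at the BEAF-32 summits (56.7% upstream and 54.7% downstream) lay above the upper quartile. Those at pzg, at the main Trl promoter summit and at the upstream BEAF-32 summit, none with TATCGA, also lay above the upper quartile of promoter summits without TATCGA (50.2%). The downstream BEAF-32 window lay above that of promoter summits with TATCGA (42.3%). TATCGA was in the windows of Dref, Cp190 and CTCF and of the downstream BEAF-32 summit. TAATTA, a homeodomain core, was within 100 bp of none of the 8 own-start summits and of 11.7% of promoter summits. The ratio of replicate 1 to replicate 2 varied among the genes. It was 1.21 at Dref, 1.23 at Cp190 and 1.00 at the main Trl promoter summit, below the lower quartile of all promoter summits, and 2.59 at CTCF, above the upper quartile.

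The order of the own-start signals was not the same in each replicate. In replicate 1 the strongest summits ranked BEAF-32 (148), CTCF (101), Dref (94.2), Cp190 (76.3), Trl (60.1) and pzg (50.3). In replicate 2 they ranked BEAF-32 (104), Dref (78.1), Cp190 (61.8), Trl (59.5), CTCF (39.0) and pzg (29.5). BEAF-32 was first and pzg last in each. The strongest summits of BEAF-32, Trl and pzg lay at different places in each replicate, as given above. CTCF changed place by 3 positions, and Dref, Cp190 and Trl kept their order among themselves. With 2 replicates and no measure of depth, the differences between neighbours in these orders were not tested.

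Genes for partners of these proteins had own-start summits in 18 of 28 cases in the conservative set, beside 26.5% of all protein-coding genes. The partner lists were also chosen with earlier results of these data known. Of 14 insulator and architectural proteins, 9 had one, with signals from 123 to 548 and a median of 204. The strongest were Cap-H2, a condensin II subunit, with 548 (340 in replicate 1 and 206 in replicate 2), and pita, a zinc finger insulator protein, with 342 (232 and 117). Next came mod(mdg4), the BTB partner of Su(Hw), with 300 (180 and 122), and dwg, which encodes the insulator protein Zw5, with 262 (188 and 65.0). Ibf1 and Ibf2 are neighbours and share 1 summit, which enters the count and the median for both. Of 14 cofactors of promoter factors, 9 had a summit as well, with a median signal of 187. These were led by nsl1 of the NSL complex with 357 (203 and 148), the remodeller ATPase gene Iswi with 293 (158 and 132), Caf1-55, a histone-binding subunit, with 226 (156 and 67.2), and lolal, a BTB partner of GAGA factor, with 188 (117 and 68.1).

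The partner counts were 20 of 28 in the pooled set, 18 in replicate 1 and 13 in replicate 2, beside the shares of all genes given above. An insulator partner without a conservative own-start summit was counted at signals of only 2.74 in the pooled set and 2.81 in replicate 1. Another, with a signal of 45.7, was counted in replicate 1 alone. TATCGA was within 100 bp of the strongest own-start summit at 12 of the 18 partner genes and TATCGATA at 7 of them. GAGAG was at the summit of 1 of the 9 genes in each list. The summit that Ibf1 and Ibf2 share is counted for both genes. Over all promoter summits the shares were 52.3% for TATCGA, 23.7% for TATCGATA and 23.3% for GAGAG, and the differences were not tested.

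**Figure D4:**
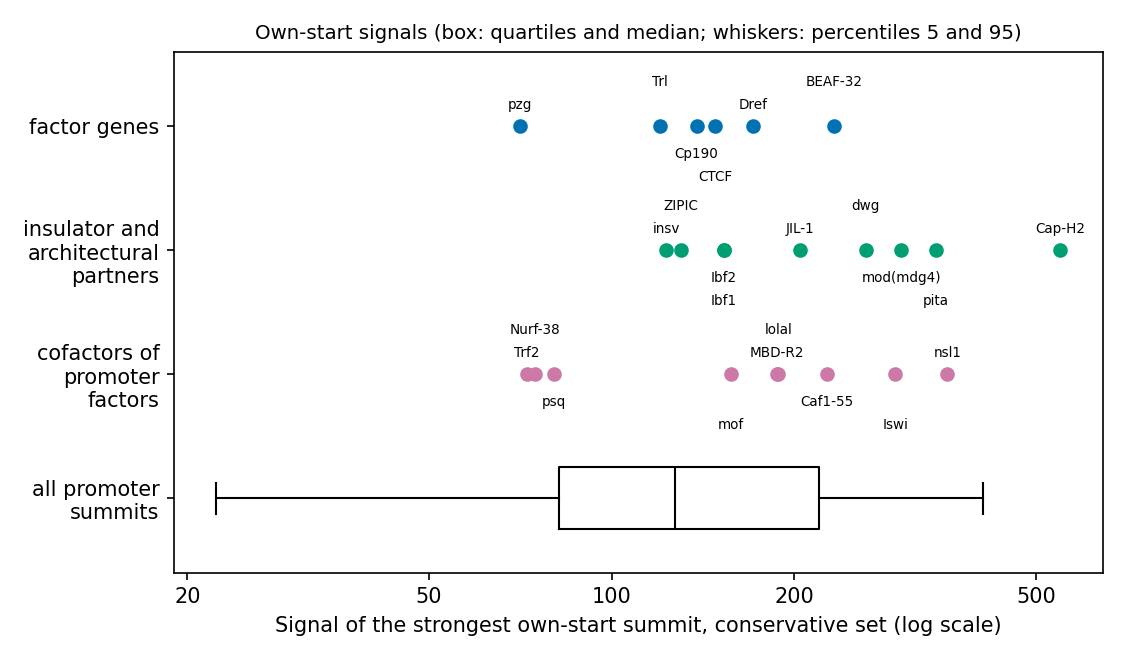
Signals of the strongest own-start summit in the conservative set (log scale) are plotted for the factor genes with one, for both partner lists and, as a box with whiskers at percentiles 5 and 95, for all 3192 promoter summits. The 6 factor genes lie between 70.7 and 232, and Cap-H2 is highest at 548.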

How the data were processed

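The deposited text records derive the peak files from filtered dm6 alignments and 1 control file, with 1 further file for the thresholded sets. The aligner and the peak caller: not given in the sources used here. The deposited signal is the caller's enrichment value, comparable within a file. The score in the deposited files reaches 1000 and tracks the IDR, and the lowest in the thresholded sets was 830. The deposited −log10 of the global IDR was at least 2.00 in the conservative set. Entries off the chromosome arms (X, Y, 4 and both arms of the large autosomes) were dropped. The entries kept were 3592 of 3595 conservative, 3727 of 3735 pooled, 3274 of 3288 in replicate 1 and 2185 of 2189 in replicate 2.

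Gene models were Ensembl release 115 (BDGP6, the dm6 assembly) without transposable elements, and sequence was the RefSeq copy. No entry lay past a chromosome's end. Positions are 1-based. Many peaks have 1 fixed width per file with the summit at its middle, which limits the precision of distances. A replicate's value at a conservative summit is its strongest ranked entry within 200 bp. Words were sought on both strands within 100 bp: TATCGATA and its core TATCGA for DREF, CGATA for BEAF-32, GGTCACAC for M1BP, GAGAG for GAGA factor, TGCATA for Su(Hw), AGNNGGCGC for CTCF, TAATTA for homeodomains and TATAAA as the TATA box. Matches are letters in the reference and show no binding. Genes without an entry count as lowest in percentiles among genes. Named genes are the 9, genes starting within 1 kb of a summit at their starts or inside them, and up to 4 per partner list. Sec63, MRG15, ppl, CG11109, Arf1, Mgat4a, CG9801 and Set8, each nearest to another summit given, were named after values were seen.

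The 9 genes and the partner lists were chosen with earlier results of these data known. No statistical test was made, as there is 1 group. Counting was tested on simulated summits and words placed at known positions. Python 3.11.15, pandas 2.3.3, numpy 2.4.6, scipy 1.17.1 and matplotlib 3.10.9 were used.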

Additional observations from a re-analysis of the deposited data

How the results depend on the processing

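No paired analysis was possible because there is 1 group. Own-start summits were found at 6 of the 9 genes in every peak set and at 5 with an IDR of 0.001 (without pzg) or with the 5′ end of the gene model alone (without Trl). Using 1 replicate's set in place of the conservative one gave 6 and 6 genes with an own-start summit, 7 and 7 in the gene or within 5 kb, 3 to 4 with TATCGA, and 13 to 18 partner genes. The share of all protein-coding genes was 26.5%, with 17.6% to 24.5% in the sets of single replicates and 17.4% at an IDR of 0.001. Inside the gene model, without the 5 kb on either side, 4 of the 9 genes had a summit; within 10 kb 8 had. The median percentile of the 6 genes among promoter summits was 55.7, with 40.1 to 49.2 in single replicates; CTCF had 57.2 and, in replicate 2 alone, 13.2. TATCGA was at 4 of the 6 strongest summits and, within 50 bp, at 3. Depth is unknown. The ranked entries at the starts of M1BP, Chro and su(Hw) were below the IDR threshold, which does not show that binding there is absent.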

Other observations

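A conservative summit lay within 500 bp of 78.1% of the 1242 protein-coding starts with TATCGATA within 100 bp, the class that holds the CTCF start and both Cp190 starts. The share was 57.3% of the 3895 starts with TATCGA, which include all of those with TATCGATA, so these classes are not separate. The Dref start, with a summit, and the most upstream Chro start, with none, have TATCGA without TATCGATA. The share was 40.2% of the 1094 starts with GGTCACAC, the class that holds the su(Hw) start. It was 19.3% of the 4813 with GAGAG, the class that holds the Dref start and the most downstream Trl start. Over all 19275 protein-coding starts, 23.5% had such a summit. These shares describe the same peaks, and base composition was not matched between the classes.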
